A study of Mus musculus with 4 samples.

Results

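The 35 genes described here are targets of the transcription factor ATF4, together with cytosolic aminoacyl-tRNA synthetases. They were chosen by name, with earlier results of these data known. Of the 35, 34 were found by symbol among the 50600 genes of the deposited table. By role, the 34 comprise 7 regulators and effectors of the stress response, called regulators below. There are also 11 enzymes of amino acid synthesis and linked one-carbon steps, 5 genes of uptake and 11 tRNA synthetases. The remaining gene, Mars1 (methionyl-tRNA synthetase), is listed under its RefSeq synonym Mars and is kept outside the counts below.

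ATF4 is the main effector of the integrated stress response. Phosphorylation of the initiation factor eIF2 lowers general protein synthesis but raises translation of Atf4 mRNA through its upstream open reading frames, and ATF4 then activates genes that make, import and charge amino acids. Its activity is set largely at the protein level, which RNA sequencing does not measure. Proliferating cells use the same genes to supply protein and nucleotide synthesis.

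RNA was sequenced from 2 libraries of cultured adipose tissue cells, called ADRC in the labels, and 2 libraries of reprogrammed cells (6F). All cells came from mouse inguinal and axillary fat and were at passage 2, and RNA was depleted of ribosomal RNA. ADRC came from mice aged 8 weeks, of strain C57BL/6J. Their titles also call them an αMHC-GFP positive control, which the strain label does not show, and no treatment is given for them. The 6F cells came from the strain C57BL/6-Tg (Myh6-EGFP) MG3Tm, received 6 factors by lentiviral transfer, and were sorted as GFP-positive 3 weeks later. The Myh6 promoter that drives GFP is active in cardiomyocytes, so the 6F libraries hold only the cells in which the reporter had come on. Transduction, the weeks in culture, the sort and the strain label all differ between the groups and cannot be told apart. No label states separate cultures for the replicates, and p-values therefore measure only how far the libraries spread, which may be technical.

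The ADRC libraries held 2273897 and 2662128 exon reads and the 6F libraries 7593772 and 6986223. edgeR's quasi-likelihood test was run on 12573 genes. At a Benjamini-Hochberg adjusted p under 0.05 it called 24.2% of them higher and 22.8% lower in 6F, 47.0% in all. The median log2 fold change was 0.07. With the 6F libraries thinned to about the ADRC depth, 24.5% of 11510 genes were called higher and 23.6% lower. The summed level of 8 proliferation genes was 1129 and 1196 CPM (counts scaled to a common library size) in ADRC and 41.8 and 51.1 in 6F, and all 8 were lower. Cardiomyocyte markers summed to 23.1 and 27.1 CPM in ADRC and 4257 and 4206 in 6F, with 5 of 5 tested higher and Nkx2-5 at 0 reads in every library. Smooth muscle markers summed to 4628 and 4739 CPM against 8802 and 8477, with 3 of 4 higher. Mesenchymal markers, the labelled cell type, summed to 2611 and 2464 CPM against 1147 and 1435, with 4 of 7 lower and 2 higher. Macrophage markers fell for 3 of 7 genes, and their sum was 257 and 274 CPM in ADRC but 12.6 and 113 in the 6F libraries. Endothelial markers were low in all libraries, at 34.7 and 38.8 CPM against 11.8 and 27.4, with 2 of 4 tested lower. Of the adipocyte markers Plin1 was the only one tested and was higher in 6F (3.00 ± 0.82), Adipoq had 0 and 1 reads in ADRC and 75 and 9 in 6F, and Lep had 0 in every library. The part of these markers in the results below was not tested, and in bulk RNA fewer cells of a type and less RNA per cell cannot be told apart.

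Promoter windows of 6 members are shown because ATF4 with its C/EBP partners is known to bind the composite element TGATGNAA, of which TGATGCAA is one form. Each window runs from 250 bases before to 50 after the RefSeq start site on GRCm38.p6, and is written 5′ to 3′ on the gene's strand, with matches to TGATGNAA on either strand in capitals. Asns, Slc7a11, Chac1, Aars and Tars hold a match and fell in 6F. Cbs holds none and was the member that rose. The 6 were picked by name and do not stand for all members. Of the 29 members with a window only 12 hold a match, and Phgdh, Shmt2 and Psat1 hold none and fell. Whether a match goes with the direction of change was not tested. Vldlr, not shown, also holds a match and did not fall (0.92 ± 0.47).
Asns, chr6:7693160-7693459, minus strand: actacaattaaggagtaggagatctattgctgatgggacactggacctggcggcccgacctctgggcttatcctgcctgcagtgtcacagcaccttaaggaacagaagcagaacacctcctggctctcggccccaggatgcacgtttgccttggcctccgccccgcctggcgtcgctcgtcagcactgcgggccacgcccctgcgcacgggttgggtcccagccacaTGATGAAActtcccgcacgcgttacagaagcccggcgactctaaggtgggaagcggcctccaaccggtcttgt
Slc7a11, chr3:50443564-50443863, minus strand: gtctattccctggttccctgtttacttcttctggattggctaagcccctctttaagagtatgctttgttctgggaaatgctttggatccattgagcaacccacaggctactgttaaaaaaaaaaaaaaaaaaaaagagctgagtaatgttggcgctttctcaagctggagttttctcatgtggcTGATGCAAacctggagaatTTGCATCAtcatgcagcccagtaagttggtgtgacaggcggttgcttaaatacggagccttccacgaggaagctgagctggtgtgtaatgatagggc
Chac1, chr2:119350992-119351291, plus strand: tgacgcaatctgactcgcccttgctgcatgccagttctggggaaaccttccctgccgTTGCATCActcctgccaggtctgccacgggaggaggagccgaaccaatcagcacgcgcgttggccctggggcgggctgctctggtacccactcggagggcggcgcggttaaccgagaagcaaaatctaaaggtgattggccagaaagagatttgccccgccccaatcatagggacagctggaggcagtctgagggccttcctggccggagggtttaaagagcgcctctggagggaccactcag
Aars, chr8:111033592-111033891, plus strand: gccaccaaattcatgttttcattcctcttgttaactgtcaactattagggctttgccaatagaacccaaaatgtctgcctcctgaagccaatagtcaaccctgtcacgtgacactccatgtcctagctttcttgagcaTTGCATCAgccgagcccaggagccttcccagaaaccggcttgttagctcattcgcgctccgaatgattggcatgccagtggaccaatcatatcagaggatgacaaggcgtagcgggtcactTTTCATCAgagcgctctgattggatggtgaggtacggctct
Tars, chr15:11399609-11399908, minus strand: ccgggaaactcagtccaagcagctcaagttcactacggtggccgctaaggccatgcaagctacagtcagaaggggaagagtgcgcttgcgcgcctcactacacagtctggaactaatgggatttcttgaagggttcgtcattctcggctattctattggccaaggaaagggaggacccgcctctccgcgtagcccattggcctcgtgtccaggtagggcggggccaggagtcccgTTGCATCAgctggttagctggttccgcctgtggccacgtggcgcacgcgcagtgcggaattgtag
Cbs, chr17:31637156-31637455, minus strand: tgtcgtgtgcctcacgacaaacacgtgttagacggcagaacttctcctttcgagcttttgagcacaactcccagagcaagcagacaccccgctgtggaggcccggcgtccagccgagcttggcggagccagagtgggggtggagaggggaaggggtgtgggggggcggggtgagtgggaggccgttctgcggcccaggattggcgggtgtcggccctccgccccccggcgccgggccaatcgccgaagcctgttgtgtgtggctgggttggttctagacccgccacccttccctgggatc

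A match was found in the windows of 12 of the 29 members that had one, namely Chac1, Trib3, Slc7a11, Yars, Asns, Gars, Nupr1, Aars, Pycr1, Iars, Tars and Vldlr. That is 36.4% of the 33 member windows, against 3.97% of all 32851 windows of the same length. Many members were listed as known ATF4 targets, so a larger share is not independent of that choice and was not tested. Slc7a11 and Aars held 2 matches each. The form TGATGCAA occurred in 9 member windows and in 0.895% of all windows. CACGTG, the E-box, was found in 6 member windows and in 7.15% of all windows, and overlapped no match to TGATGNAA in the members. These are matches of letters, not binding sites, and several members that fell, such as Phgdh, Shmt2 and Psat1, had a window without a match.

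Most members were lower in the 6F cells. The members were chosen with earlier results of these data known, so their counts are not independent of that choice. Of the 34 members, 31 fell, 1 rose (Cbs) and 2 did not pass the test (Ddit4 and Vldlr), where 22.8% of all genes fell and 24.2% rose. Their median log2 fold change was -1.63, beside 0.07 for all genes, and 29 of 34 were lowered at least 2-fold, beside 15.9% of all genes. Summed over the members, the level was 7822 and 7981 CPM in ADRC and 2539 and 3086 in 6F. In all 31 that fell, both 6F libraries lay below both ADRC libraries, an arrangement seen for 37.4% of all genes tested. Cbs lay above in both 6F libraries, as did 40.5% of all genes. Scaled by library size alone, 28 fell and the median was -1.40, while the median of all genes moved to 0.30 and 64.8% of all called genes were higher, in place of 51.4%.

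**Figure D1:**
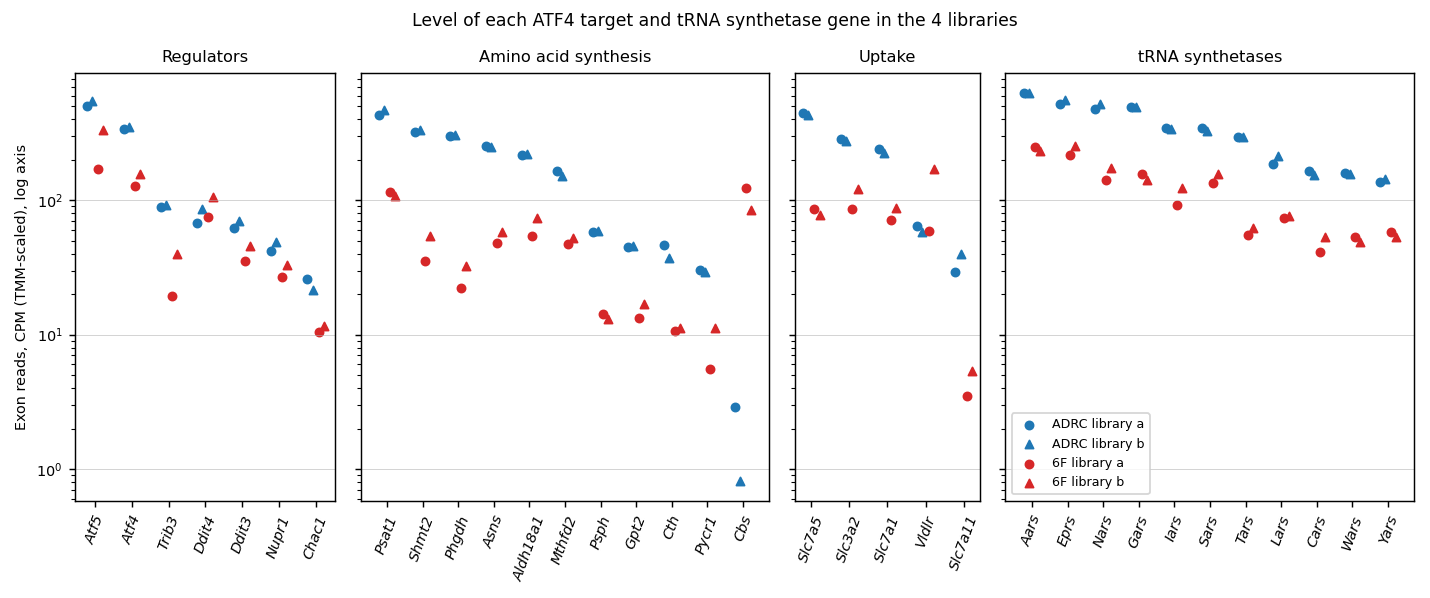
Exon reads of each member in each library, in CPM scaled by TMM on a log axis, grouped by role and ordered by the ADRC mean; blue marks ADRC and red 6F, circles library a and triangles library b. Red points lie below blue ones for 31 of 34 genes, and Cbs, at 2.89 and 0.81 CPM in ADRC against 123 and 85.0 in 6F, is the reverse.

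Atf4 itself was among the genes with fewer exon reads. Its level was 341 and 350 CPM in ADRC and 127 and 158 CPM in 6F, with no overlap, a log2 fold change of -1.27 ± 0.17 (SE, n = 2 and 2 libraries, edgeR adjusted p = 0.0018). The gene lies at chr15:80255184-80257541 on GRCm38. Exon reads do not separate spliced from unspliced RNA. In the deposited reads across splice junctions, which were looked at before being set aside and whose values are not given here, Atf4 changed less and did not pass the test, so its fall is shown for total exon reads only.

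Of the other regulators, Trib3, a pseudokinase that inhibits ATF4 and AKT signalling, was at 88.6 and 92.2 CPM in ADRC and 19.3 and 39.7 in 6F, a log2 fold change of -1.62 ± 0.33. Atf5, a related bZIP factor, was at 500 and 545 against 172 and 335 CPM (-1.04 ± 0.31). Chac1, which degrades glutathione, changed by -1.10 ± 0.24, Ddit3, which encodes the stress factor CHOP, by -0.71 ± 0.20, and Nupr1, a stress-induced chromatin protein, by -0.61 ± 0.20. All 5 fell by edgeR's test, with adjusted p between 0.0094 and 0.0487. These calls did not all hold when an ADRC library was left out, where the spread came from the 6F libraries alone. Without ADRC library a, Atf5, Chac1, Ddit3 and Nupr1 were at -1.13, -0.99, -0.81 and -0.74. Without library b these 4 were at -1.0, -1.26, -0.65 and -0.52, and Trib3 was at -1.61. The number of regulators that fell was then 2 and 1, in place of 6, while 8.74% and 8.47% of all genes fell, in place of 22.8%. With library-size scaling 3 fell, where 16.9% of all genes did. Ddit4, which restrains mTORC1, was at 68.4 and 86.2 CPM in ADRC and 75.0 and 106 in 6F, overlapping, with 0.22 ± 0.22 (edgeR adjusted p = 0.447), and without 6F library a it passed at 0.45. Every regulator was higher in 6F library b than in library a, as were 26 of the 34 members and 50% of all genes.

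Amino acid synthesis included the deepest fall among the members, that of Phgdh. Phgdh, Psat1 and Psph catalyse the successive steps from a glycolytic intermediate to serine. Phgdh, which commits carbon to the route, was at 302 and 305 CPM in ADRC and 22.1 and 32.3 in 6F, 11.2-fold lower, with a log2 fold change of -3.48 ± 0.22 (edgeR adjusted p = 1.9e-04). Psat1 was at 430 and 467 against 116 and 108 CPM (-2.0 ± 0.15), and Psph at 58.2 and 59.5 against 14.2 and 13.1 CPM (-2.10 ± 0.19). All 3 enzymes of the route fell, and their groups lay far apart. Psph shares 10.4% of its exon bases with Cct6a on the opposite strand.

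Shmt2, the mitochondrial enzyme that splits serine into glycine and a one-carbon unit, was at 321 and 332 CPM in ADRC and 35.4 and 53.8 in 6F (-2.87 ± 0.23). Mthfd2, which oxidises that unit in mitochondria, was at 165 and 152 against 47.6 and 52.6 CPM (-1.66 ± 0.16). Asns, asparagine synthetase, was at 256 and 248 against 48.0 and 58.3 CPM (-2.24 ± 0.17). Aldh18a1 and Pycr1 of proline synthesis changed by -1.77 ± 0.19 and -1.84 ± 0.36, and Gpt2, the mitochondrial alanine transaminase, by -1.59 ± 0.21. With serine synthesis and Cth, 10 of the 11 enzymes fell, and each did so in all 12 alternatives reported, among them leaving out each library.

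The transsulfuration pair, Cbs and Cth, moved apart. Cbs, which joins homocysteine to serine, had 6 and 2 exon reads in ADRC and 1017 and 634 in 6F, a log2 fold change of 5.86 ± 0.44 (edgeR adjusted p = 3.1e-04). Its size depends on the few ADRC reads: without single libraries it ranged from 5.14 to 6.94. Cth, which releases cysteine in the next step, was at 46.2 and 37.2 CPM in ADRC and 10.6 and 11.1 in 6F (-1.93 ± 0.22). Scaled per kilobase of exon as well as per library, Cth stood at 14.9 and Cbs at 0.553 in ADRC, and at 3.90 and 31.1 in 6F, so the order of their levels was opposite in the groups.

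Among the uptake genes, Slc7a5 and Slc3a2 encode the light and heavy chains of the large neutral amino acid exchanger, and Slc7a11 pairs with the same heavy chain to import cystine. Slc7a5 was at 447 and 430 CPM in ADRC and 86.5 and 77.7 in 6F (-2.42 ± 0.15), and Slc3a2 at 285 and 278 against 86.5 and 122 CPM (-1.44 ± 0.20). Slc7a11 was at 29.4 and 39.7 against 3.5 and 5.37 CPM (-2.96 ± 0.32). Slc7a1, which carries cationic amino acids, was at 239 and 227 against 71.6 and 88.3 CPM (-1.54 ± 0.17). The 4 transporters fell, without overlap and in all 12 alternatives reported.

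Vldlr, a lipoprotein receptor and ATF4 target, differed between the 6F libraries themselves. It was at 64.0 and 57.9 CPM in ADRC and at 59.4 and 171 in 6F, so that 6F library b alone stood high. The log2 fold change was 0.92 ± 0.47 (edgeR adjusted p = 0.149). Without 6F library a it was 1.5 and passed, and without library b it was -0.0032.

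All 11 tRNA synthetases found by symbol fell, and each did so in all 12 alternatives. Together they stood at 3757 and 3839 CPM in ADRC and at 1275 and 1377 in 6F. The log2 fold changes ranged from -2.33 to -1.20 with a median of -1.63. Tars (threonine) changed most, from 294 and 297 CPM to 55.3 and 62.6 (-2.33 ± 0.15, edgeR adjusted p = 2.1e-04). Gars (glycine), at 496 and 497 against 158 and 142 CPM, changed by -1.73 ± 0.15. Nars (asparagine) changed by -1.65 ± 0.17, Cars (cysteine) by -1.76 ± 0.18, Iars (isoleucine) by -1.67 ± 0.18 and Wars (tryptophan) by -1.63 ± 0.15. Aars (alanine), the member with the most synthetase reads, was at 631 and 633 against 251 and 231 CPM (-1.39 ± 0.15), and shares 14.3% of its exon bases with Exosc6. Lars (leucine), Yars (tyrosine) and Sars (serine) changed by -1.41 ± 0.15, -1.33 ± 0.15 and -1.21 ± 0.16, and Eprs, which charges both glutamate and proline, by -1.20 ± 0.16. Mars was at 90.0 and 97.1 against 68.2 and 62.4 CPM (-0.52 ± 0.16, edgeR adjusted p = 0.0336), and its exons overlap those of Ddit3 by 68 bases on the opposite strand.

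**Figure D2:**
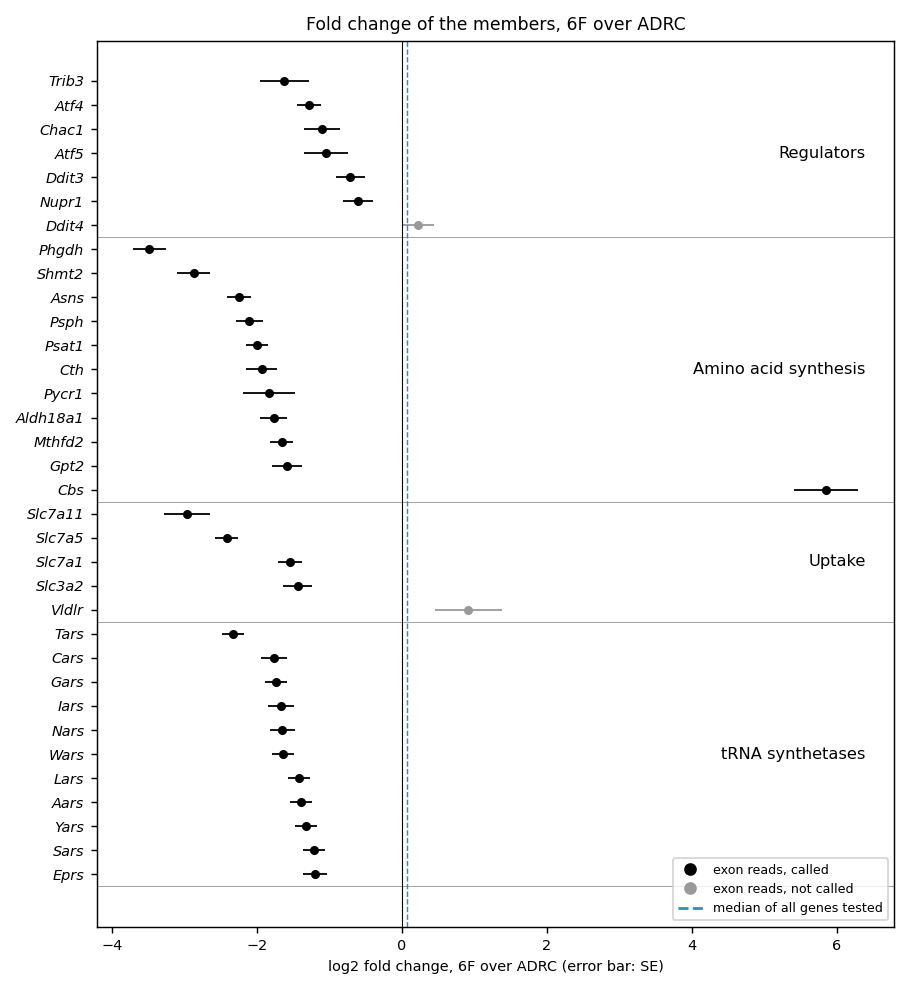
The log2 fold change of each member from exon reads, 6F over ADRC, with its SE (black where called, grey where not), beside the median of all genes tested at 0.07 (dashed). The synthetases lie between -2.33 and -1.20, and Cbs stands alone at 5.86.

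In the authors' deposited table the fold change had the sign of the values here for all 34 members, and 10 had a false discovery rate under 0.05. By the authors' deposited table these were Asns, Atf4, Gars, Nars, Phgdh, Psat1, Shmt2, Slc7a5 and Tars, lower, and Cbs, higher. The remaining members did not pass there, among them the synthetases Aars, Cars, Eprs, Iars, Lars, Sars, Wars and Yars. The share of all genes under that rate was not counted, so the 10 have no background beside them.

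Counts of called genes in the lists below move with the scaling and with the libraries left out, as they do over all genes. With library-size scaling, 16.9% of all genes were lower and 31.2% higher, with a median of 0.30. With the correction for exon length and GC content, 28.1% were lower and 19.7% higher, with a median of -0.12. Without ADRC library a or b, 8.74% and 8.47% of all genes were lower and 9.13% and 8.87% higher, and without 6F library a or b, 32.8% and 34% were lower and 35% and 36.8% higher.

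The remaining cytosolic synthetases and their scaffold proteins moved the same way: of 11 tested, 9 fell and 0 rose, with a median of -1.34 (7 and 5 fell without ADRC library a or b, 10 and 11 without 6F library a or b). Vars (valine) changed by -1.79 ± 0.16, Aimp2, a scaffold of the multisynthetase complex, by -1.61 ± 0.22, Rars (arginine) by -1.47 ± 0.15 and Farsb (a phenylalanine subunit) by -1.44 ± 0.17. Dars (aspartate), at 73.2 and 86.6 against 64.1 and 75.0 CPM, and Aimp1 (-0.55 ± 0.20) did not pass.

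The mitochondrial synthetases, which charge tRNAs for the mitochondrial genome's own proteins, had a median of 0.14, with 3 of 17 lower, 1 higher and 13 not called. The balance depends on the scaling, as it does over all genes. Library-size scaling gave 1 lower and 3 higher with a median of 0.38. The correction for exon length and GC content gave 6 lower and 0 higher with a median of -0.15. The number lower ran from 1 without either ADRC library to 6 without either 6F library, and the number higher from 0 to 6, as calls over all genes also did. Those lower by exon reads were Lars2 (-4.36 ± 0.49), Sars2 (-1.38 ± 0.40) and Yars2 (-0.88 ± 0.27), and Fars2 was higher (0.82 ± 0.25). Without ADRC library a or b the last 3 did not pass (Sars2 -1.62 and -1.15, Yars2 -0.75 and -1.06, Fars2 0.79 and 0.79). Lars2 stood at 80363 and 63638 CPM in ADRC and 4996 and 2037 in 6F, levels above every other gene named here. In mouse the gene is known to hold a stretch that resembles ribosomal RNA. In the reads across splice junctions, set aside as for Atf4, Lars2 was not lower, so its exon reads are not evidence of a fall in its mRNA. Iars2 (0.47 ± 0.18) and Tars2 (-0.58 ± 0.22) did not pass. The difference between the cytosolic and mitochondrial lists was not tested.

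**Figure D3:**
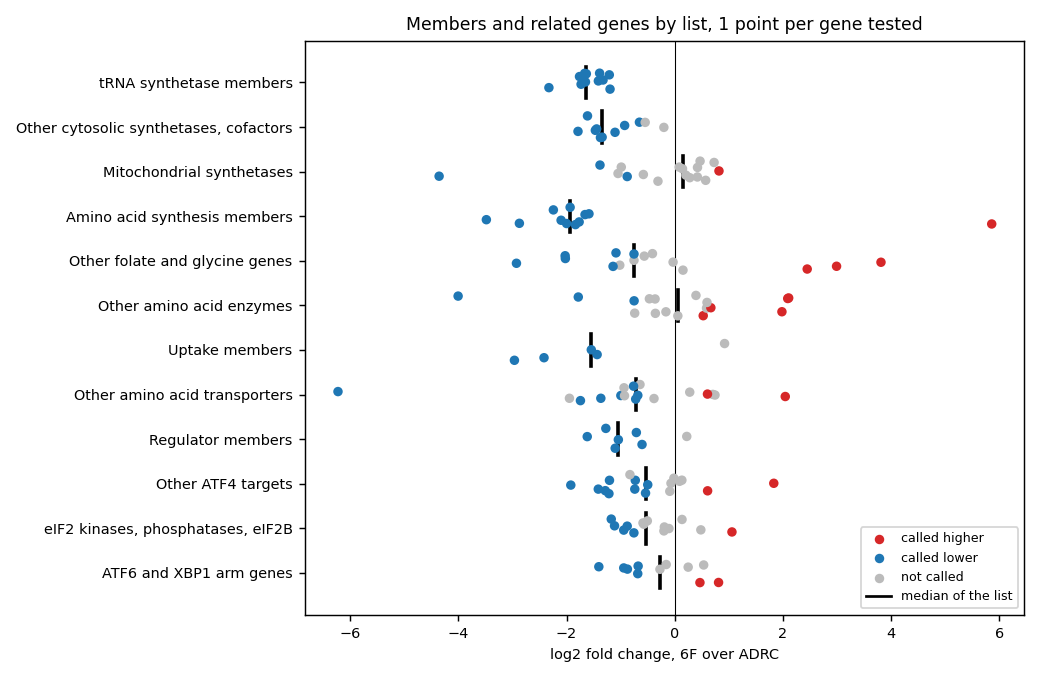
The log2 fold change of every gene tested, 6F over ADRC, by list, with a bar at each list's median; blue genes were called lower, red higher and grey not called. The synthetase members have a median of -1.63 and the mitochondrial synthetases one of 0.14.

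The genes that act upstream of ATF4 had a median nearer to that of all genes. The 14 were kinases, phosphatase subunits, eIF2 or eIF2B subunits, and Gcn1l1 and Impact, which act on the kinase GCN2. Of these, 5 fell and 1 rose, with a median of -0.54. No call held without ADRC library a or b. The kinases Eif2ak1, Eif2ak2, Eif2ak3 and Eif2ak4 (-0.59, 0.48, -0.57 and -0.20) did not pass with all libraries. Without 6F library a 10 fell and 3 rose, and without library b 9 and 2, beside the larger shares of all genes in those settings. Eif2b3 and Eif2b1, subunits of the exchange factor, changed by -1.17 ± 0.25 and -1.11 ± 0.22, and Eif2s1, the subunit that is phosphorylated, by -0.94 ± 0.17. Impact, an inhibitor of the kinase GCN2, rose from 53.0 and 70 CPM to 144 and 113 (1.06 ± 0.21). Without ADRC library a or b these 4 were at -1.24 and -1.16, -1.16 and -1.12, -1.04 and -0.89, and 0.84 and 1.25. Ppp1r15b (-0.19 ± 0.19) and Eif2b5 (-0.11 ± 0.28) did not pass.

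A further 17 ATF4 targets were tested, of which 9 fell and 2 rose, with a median of -0.54. With library-size scaling 4 fell and 2 rose, with a median of -0.31 (with TMM scaling 3 fell and 1 rose without either ADRC library, 10 and 4 without 6F library a, 12 and 2 without b). Jdp2, a bZIP repressor, changed by -1.92 ± 0.18, Xpot, the tRNA exporter, by -1.41 ± 0.18, and Lonp1, a mitochondrial protease, by -1.28 ± 0.15. Cdkn1a, which encodes the cell cycle inhibitor p21, rose from 145 and 142 CPM to 559 and 461 (1.83 ± 0.17). Ddr2 (-0.02 ± 0.20) and Vegfa (-0.09 ± 0.49) did not pass. Vegfa was at 109 CPM in 6F library a and 357 in b, on either side of the ADRC values of 268 and 229. Genes of the ATF6 and XBP1 arms of the unfolded protein response had a median of -0.27, with 5 of 11 lower and 2 higher. Without either ADRC library 1 fell and 0 rose, and without 6F library b 5 and 4. Library-size scaling gave 3 lower and 3 higher, and the correction for length and GC content 6 and 0. Calls over all genes moved the same ways. Creld2 changed by -1.40 ± 0.19, Hyou1 by -0.94 ± 0.14 and Hspa5 by -0.88 ± 0.19, and Dnajb9 rose by 0.81 ± 0.20. Of these, Hyou1 (-0.99 and -0.95), Hspa5 (-0.89 and -0.91) and Dnajb9 (0.68 and 0.90) did not pass without ADRC library a or b. Pdia4 (-0.27 ± 0.15) and Edem1 (0.25 ± 0.18) did not pass with all libraries.

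The folate and glycine genes outside the members moved in both directions, 6 of 15 lower and 3 higher, with a median of -0.75. Over all genes 22.8% were lower and 24.2% higher. The glycine cleavage genes Amt (2 and 1 reads in ADRC, 87 and 65 in 6F) and Gldc (3 and 4 against 149 and 50) rose by 3.81 ± 0.57 and 2.99 ± 0.69, and Gldc did not pass without ADRC library a (2.89) or b (3.06). Aldh1l1, the cytosolic 10-formyltetrahydrofolate dehydrogenase, rose from 13.5 and 20.2 CPM to 109 and 76.1 (2.45 ± 0.29). Dld did not pass (0.15 ± 0.18). Chosen after their values were seen, Aldh1l2, the mitochondrial counterpart of Aldh1l1, fell from 225 and 240 CPM to 31.9 and 82.5 (-2.03 ± 0.41), Gcsh, another glycine cleavage gene, changed by -1.14 ± 0.18, and Shmt1, the cytosolic counterpart of Shmt2, did not pass (-0.75 ± 0.36).

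The remaining amino acid enzymes had a median of 0.06, with 5 of 17 tested higher and 3 lower. The balance turned with the correction for length and GC content, to 3 higher and 5 lower with a median of -0.23. Under library-size scaling it was 6 and 2 with a median of 0.28. Calls over all genes moved the same ways. The counts also moved with the libraries left out. The transaminases of branched-chain amino acids moved in opposite directions. Bcat1, the cytosolic form, was at 338 and 328 CPM in ADRC and 11.3 and 30.3 in 6F (-4.00 ± 0.44), while Bcat2, the mitochondrial form, was at 28.9 and 29.5 against 150 and 98.5 CPM (2.09 ± 0.25). Glul, glutamine synthetase, rose from 44.3 and 47.3 CPM to 196 and 166 (1.98 ± 0.17), and Prodh, which breaks down proline, by 2.10 ± 0.50 from 3 and 3 reads to 51 and 40, a call lost without ADRC library a (2.20) or b (1.96). Got2 (0.60 ± 0.21) and Glud1 (-0.16 ± 0.18) did not pass. Arg1, Arg2 and Gpt were too low to test.

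Of 17 further amino acid transporters, 7 fell and 2 rose, with a median of -0.72 (3 and 1 without either ADRC library, 9 and 3 without 6F library a, 11 and 4 without b). Slc38a4, a system A carrier, was at 30.3 and 30.3 CPM in ADRC and at 3 reads in each 6F library (-6.22 ± 0.36). Slc6a9, a glycine transporter, changed by -1.74 ± 0.28 and Slc7a6 by -1.37 ± 0.22. Slc7a2, a cationic amino acid carrier like the member Slc7a1, rose from 14.4 and 16.2 CPM to 43.1 and 83.6 (2.04 ± 0.36). Slc38a2, a known ATF4 target, was at 391 and 368 CPM in ADRC and 203 and 379 in 6F and did not pass (-0.38 ± 0.29), nor did Slc38a1 (-0.64 ± 0.36).

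**Figure D4:**
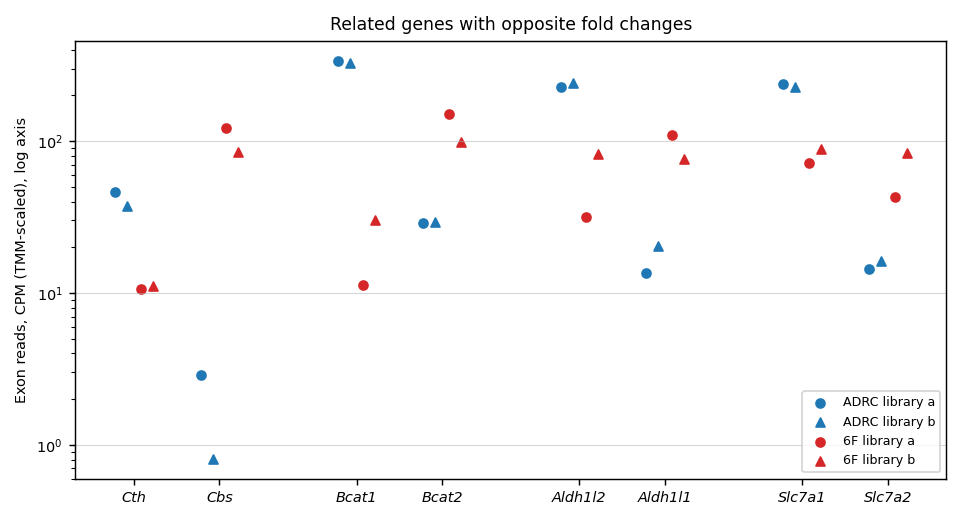
Exon reads per library, in CPM scaled by TMM on a log axis, of 4 pairs of related genes whose fold changes have opposite signs, with ADRC in blue and 6F in red. In each pair the left gene is lower in 6F and the right gene higher, as for Bcat1 (-4.00) and Bcat2 (2.09); the pairs were chosen after their values were seen.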

How the data were processed

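The deposited table covers 50600 genes, with whole-number counts of total exon reads per library (per the file headers), an exon length, and the authors' EDGE comparison, of which the signed fold change (a score at or beyond 1 in size) and the false discovery rate, a corrected p-value, were read. Another 52 columns of per-sample values, among them unique, junction and intron reads, are not used. All columns name a group and no replicate, and with such columns 1 measure per library was kept, total exon reads. Junction reads were looked at before this choice. By them Atf4 changed less and did not pass, and Lars2 was not lower. The letters a and b of the libraries carry no order. GRCm38 is the build in the submitters' processing notes, and the aligner, counter and strand setting are not given in those sources. Genes with an exon length of 0 (18045, with 0 exon reads) were dropped.

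Exon counts were fitted with edgeR 4.0.16 in R 4.3.3 (quasi-likelihood, TMM, default filter on low counts, 2 against 2 libraries), with Benjamini-Hochberg adjustment over 12573 genes. CPM are TMM-scaled. Simulated counts for 6F against ADRC were fitted over 11551 genes. Of genes changed 2-fold, 14 of 50 were recovered, with 45 of 49 changed 4-fold and 49 of 49 changed 8-fold. Of 11353 unchanged genes, 17 were called. Far fewer genes changed there than the 47.0% called in the data, so a call needed a smaller p. The shares recovered therefore do not give the recovery in the data. Alternatives were DESeq2 1.42.0, other scalings and filters, thinning, leaving out ribosomal-read genes and leaving out each library. A correction for exon length and GC content was added after seeing the data. Positions and overlaps are from GENCODE M21 and promoters from RefSeq.

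Members and lists were chosen with earlier results of these data known. All members are named, and of each related list up to 4 called genes by size and up to 2 not called by level, except 2 genes that are not reported here. Aldh1l2, Gcsh and Shmt1 were added after their values were seen.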

Additional observations from a re-analysis of the deposited data

How the results depend on the processing

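Of the 34 members, 27 kept their call and direction in all 12 alternatives, and 26 of the 31 that fell did. The 12 leave out the planned unique and junction reads. Atf4 is among the 27, though its call was lost by junction reads, and the other members by those reads are not reported. The number that fell was 31 with all libraries and 26 to 31 when each library was left out in turn, and the number that rose was 1, with 1 to 3 when each was left out (Vldlr and Ddit4 were added without 6F library a) and 2 with no filter on low counts. All 11 synthetases fell throughout. The median of the members was -1.63, from -1.69 to -1.43 without single libraries and -1.40 with library-size scaling. A loess correction for exon length and GC content, chosen after seeing the data, gave 41.2% of called genes higher and a median of all genes of -0.12. Nupr1 lost its call in 6 alternatives, Ddit3 in 4, Atf5 in 3, Chac1 in 2 and Trib3 in 1.

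Without 6F library b, Ddit4 (-0.0251), Vldlr (-0.0032), Eif2b5 (0.17) and Glud1 (0.0464) changed direction. Without 6F library a this held for Ddr2 (0.22), Vegfa (0.54), Dld (-0.003) and Slc38a2 (0.0069), and without ADRC library b for Eif2b5 (0.19). Library-size scaling turned Dars (0.0277), Ppp1r15b (0.0412), Eif2b5 (0.13), Ddr2 (0.21), Vegfa (0.13) and Glud1 (0.0698), having no filter turned Ddr2 (0.0319), and the loess correction turned Dld (-0.0947). None of these 10 genes passed the test with all libraries; the cause was not tested. Where a library was left out, the lone library of its group was assumed to vary like the other group. No paired analysis was possible because the column names carry no replicate number. Unique and junction reads were planned as alternatives and looked at, but set aside and not reported as values, because columns name only a group and 1 measure per library was kept. By junction reads the call of Atf4 was lost and Lars2 was not lower. The 2 ADRC libraries hold fewer exon reads than the 6F libraries. Changes of 2-fold were mostly not recovered in simulation, but far fewer genes changed there than were called in the data. How many changes of that size were missed in the data is therefore not known.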
